A study of Solanum lycopersicum with 24 samples.

Results

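The comparison was between slful and wild-type (WT) tomato (Solanum lycopersicum) at FIM, the floral meristem collected with the inflorescence meristem at its side. The slful plants are mutant in 4 MADS-box genes of the FRUITFULL-like group, a genotype spelled ful1/ful2/mbp10/mbp20 in the deposited legend. No source used here gives the kind of mutation in each gene, and the labels name no treatment of either genotype. All 6 FIM libraries of the series were used, 3 from slful and 3 from WT, out of 24 libraries in all. The other 18 come from VM (the vegetative meristem), TM (the transition meristem) and the same paired meristems on the first sympodial shoot (SFIM), with 3 libraries per genotype and stage. Each library was made from a pool of 30 to 60 meristems dissected from many plants. In such pools, fewer cells of a type and less RNA per cell cannot be told apart. The comparison covered every gene of the deposited table. Of 34075 genes, the 18786 with at least 0.5 RPKM (reads per kilobase of gene and per M mapped reads, M standing for mega) in at least 3 of the 24 libraries were tested.

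FRUITFULL-like genes encode MADS-domain transcription factors of the AP1/FUL clade. In Arabidopsis, FUL acts in the switch to flowering, in the identity of the inflorescence meristem and in fruit development, and in tomato FUL1 and FUL2 are best known from fruit ripening. The primary tomato shoot ends in an inflorescence, in which each meristem becomes a flower while a new inflorescence meristem forms at its flank, so a FIM sample holds both kinds of meristem. The comparison asks which transcripts differ in slful at the stage when flowers and inflorescence branches are laid down.

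Markers of meristem and floral identity were read in the labelled tissue, with symbols from gene lists made for this work. The words "listed as" mark a symbol that the deposited files do not give for that locus. The locus listed as WUSCHEL (WUS, Solyc02g083950), which maintains stem cells, had 33.6, 40.4 and 31.4 RPKM in the slful FIM libraries, against 30.5, 38.8 and 35.2 RPKM in the WT FIM libraries. FALSIFLORA (listed as FA, Solyc03g118160), the tomato LEAFY gene of floral identity, had 133, 168 and 168 RPKM in slful, against 162, 165 and 176 RPKM in WT. Both markers were abundant in all 6 libraries, with overlapping genotypes. They were not compared with the other stages, so they do not tell FIM from another meristem stage. ANANTHA, another floral identity gene, was lower and is given further below. Of 7 genes of floral organ identity, 5 were at or near 0: the loci listed as TAP3, TPI, TPIB, TAGL1 and AGL11 reached at most 0.147 RPKM in any of the 6 libraries. The other 2 were present, with TM6 (as Solyc02g084630 is listed), a petal and stamen gene, at 26.8, 19.5 and 20.4 RPKM in slful, against 21.1, 22.3 and 22.02 RPKM in WT, and TAG1 at lower levels given with the AGAMOUS-like genes.

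Library depth differed between the genotypes. The RPKM steps gave 15.5, 21.7 and 30.1 M mapped reads in slful FIM replicates 1 to 3, against 31.6, 39.0 and 36.1 M in WT FIM replicates 1 to 3. For a gene of 1 kb, 0 reads allow a level of up to 0.0998 to 0.194 RPKM in slful and 0.0770 to 0.0950 RPKM in WT (3 reads, counting error only). The slful FIM replicate 1 stood apart from the other 5 libraries. On the first principal component, which held 62.18% of the variance among the 6, it lay at 65.5, against 3.08 and -13.2 for slful replicates 2 and 3 and -29.3, -7.08 and -19.0 for WT. It was the highest of the 6 libraries for 25.2% of the tested genes and the lowest for 47.9%. WT FIM replicate 1 was the highest for 23.43% and the lowest for 17.99%, so only the lowest share was particular to slful replicate 1. The values of slful replicate 1 also moved with gene length. Among the shortest of 10 equal classes of genes (median 387 bases) its median deviation from the gene means over all 24 libraries was 0.37 on the log2 scale. Among the longest (median 3575 bases) it was -0.61. The other slful libraries stayed between -0.08 and 0.28 over the same 10 length classes, and the WT libraries between -0.14 and 0.30. Between replicates, the SD of log2 values had a median of 0.233 in slful FIM and 0.112 in WT FIM. The test therefore gave each group its own variance weight, 0.261 for slful FIM and 1.27 for WT FIM, and results that rest on slful replicate 1 are given with and without it.

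**Figure D1:**
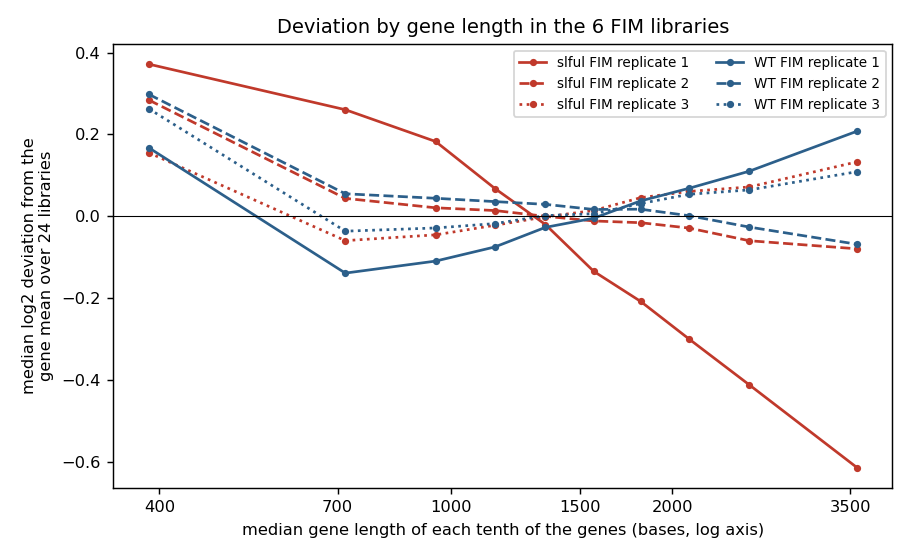
Median log2 deviation from the gene mean over 24 libraries (vertical axis) against the median length of 10 equal classes of the tested genes (horizontal axis, log scale), for the 3 slful and 3 WT FIM libraries, 1 line each. The line of slful FIM replicate 1 runs down to -0.61 at 3575 bases, while the other 5 lines end between -0.08 and 0.21.

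At FIM 24 genes were called as different between slful and WT, 0.128% of those tested. Of these, 15 were higher in slful (0.0798%) and 9 were lower (0.0479%), in a limma fit on log2(RPKM + 0.5) with Benjamini-Hochberg adjustment at 0.05. On simulated data this fit made more false calls than that threshold allows, so the false share among the 24 may be above 0.05. In all 24 the slful and WT libraries did not overlap, and 20 changed by more than 1 on the log2 scale. For scale, the groups also did not overlap in 7.57% of all tested genes with slful higher and in 9.91% with slful lower. The median log2 fold change over all tested genes was -0.07. Among the 24 calls, 5 had 0 reads in every WT FIM library and passed the filter on low values through slful libraries alone. The p of these 5 is no independent evidence. The 15 genes that were higher in slful included a high mobility group protein, a 2-oxoglutarate-dependent oxygenase, the SOC1-like gene TM3, a Golgi tethering subunit and an extensin-like cell wall protein. The 9 lower ones included FUL1, a B3 domain protein, a polyphenol oxidase, an exocyst subunit and a pair of membrane protein genes listed next to each other.

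How many genes were called depended on single libraries. Without slful FIM replicate 1 there were 104 calls, 77 higher and 27 lower (0.554%, 0.41% and 0.144% of those tested), and they included all 24. Without slful FIM replicate 2 there was 1 call, without slful FIM replicate 3 there were 10, and without WT FIM replicate 3 there were 15. Only 1 of the 24 genes was called under every alternative setting in which it was tested. With the omission of slful FIM replicate 2 set aside, 4 of the 24 were. With 1 common spread for all 8 groups, 284 genes passed (1.51%), 169 higher (0.9%) and 115 lower (0.612%), again including all 24. The share of calls that were higher moved by over 10 percentage points under quantile normalisation, with 45 higher and 14 lower, and after removal of the trend on gene length, with 60 higher and 22 lower. It also did so in the 6 FIM libraries alone (10 higher, 1 lower), with TM and FIM fitted together (17 and 5), with voom on the recovered reads (26 and 6) and with a replicate block (15 and 4). All 6 left-out libraries except WT FIM replicate 1 moved it as far too, each towards higher.

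**Figure D2:**
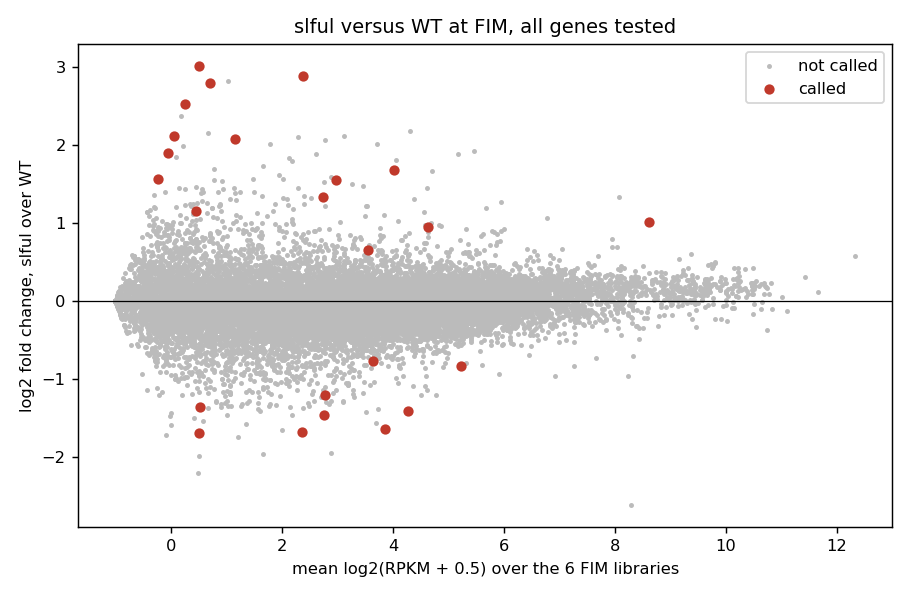
Log2 fold change of slful over WT at FIM (vertical axis) against mean log2 level (horizontal axis) for the 18786 genes tested, with the 24 called genes marked. The called genes lie between -1.70 and 3.01. Large fold changes without a call are also present, such as Solyc03g114940 at a mean log2 level of 8.28 with a log2 fold change of -2.62 and an adjusted p of 0.384.

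**Figure D3:**
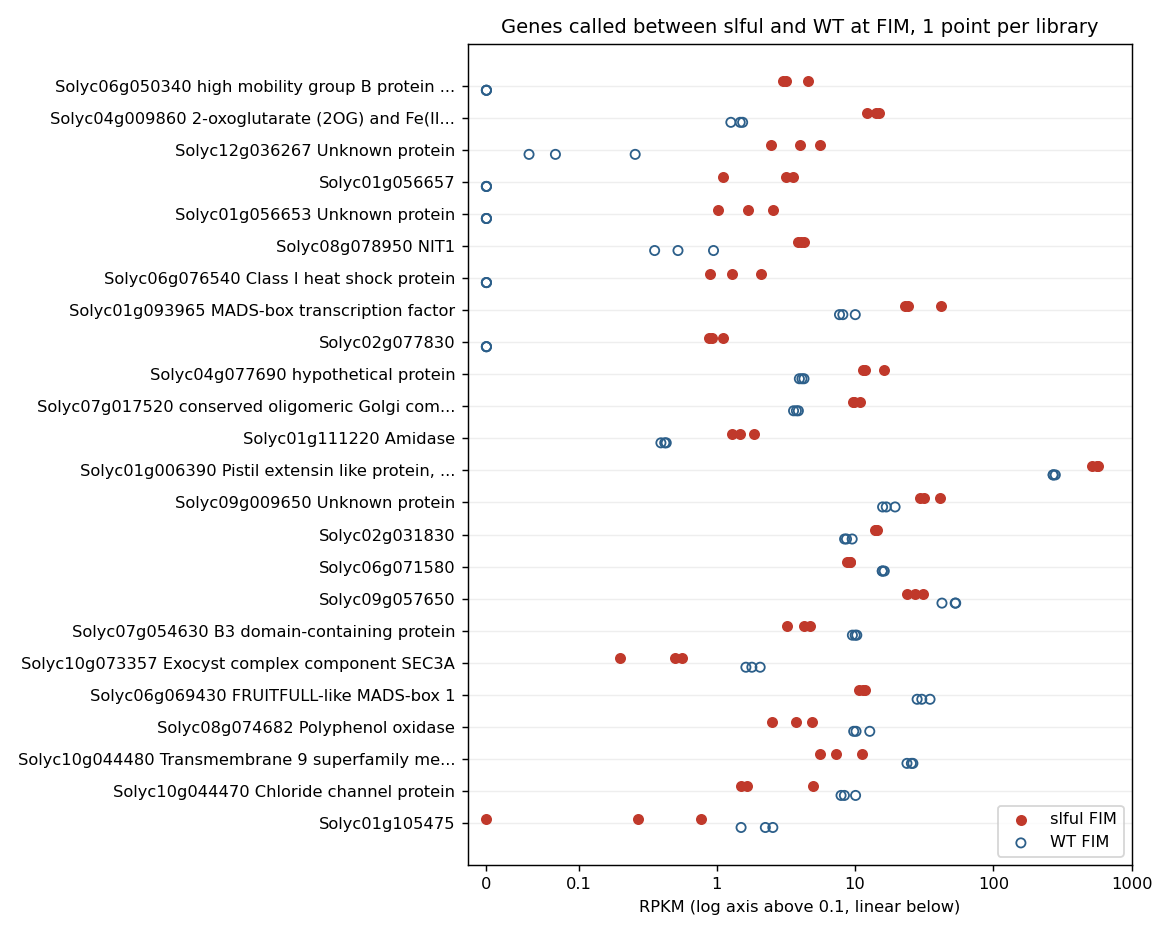
RPKM of the 24 called genes in each FIM library (horizontal axis, linear below 0.1 and logarithmic above), 1 row per gene, with slful points and WT points marked separately. In no row do the 3 slful points and the 3 WT points overlap.

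Among the 4 FUL-like genes for which the mutant is named, transcripts of all 4 were detected in slful, so RNA level alone does not check the genotype labels. FUL1 (Solyc06g069430, described as FRUITFULL-like MADS-box 1) had 11.5, 10.7 and 11.8 RPKM in slful, against 28.1, 30.3 and 34.8 RPKM in WT. The 3 slful values were nearly equal and every one was below the lowest WT value. Mean levels were 11.3 ± 0.53 RPKM in slful and 31.1 ± 3.42 RPKM in WT (SD, n = 3 each). Its log2 fold change was -1.41, with SE 0.27 and adjusted p = 0.0305, and without slful replicate 1 it was -1.42 (adjusted p = 0.000655). The call was lost under 6 of 17 alternatives, 4 of which left out another single FIM library, with adjusted p between 4.9e-05 and 0.968 over all 17.

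The locus listed as FUL2 (Solyc03g114830), the closest relative of FUL1 in tomato, had 12.7, 12.9 and 14.3 RPKM in slful, against 21.0, 22.9 and 26.6 RPKM in WT. Its groups did not overlap, but the log2 fold change of -0.80 (SE 0.20) did not pass (adjusted p = 0.181). Without slful replicate 1 it passed, at -0.77 and adjusted p = 0.0113. MBP20 (Solyc02g089210, described as a MADS box transcription factor) lay the other way, with 70.0, 63.1 and 64.1 RPKM in slful, against 45.7, 51.9 and 52.4 RPKM in WT. Every slful library was above every WT library, and the log2 fold change of 0.39 (SE 0.18) did not pass (adjusted p = 0.432). Lowest of the 4 was MBP10, as Solyc02g065730 is listed, with 0.826, 0.522 and 0.944 RPKM in slful, against 1.17, 1.16 and 1.14 RPKM in WT. These levels rest on 37 reads in slful and 87 in WT, and the log2 fold change of -0.41 did not pass (adjusted p = 0.544). Of the 4 genes 0 rose, 1 fell and 3 did not pass, with a median log2 fold change of -0.60, beside -0.07 for all tested genes.

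SOC1-like MADS-box genes are named after the Arabidopsis gene that promotes flowering downstream of several floral signals. The gene listed as TM3 (Solyc01g093965, described as a MADS-box transcription factor) had 41.9, 24.1 and 23.0 RPKM in slful, against 7.71, 10.02 and 8.15 RPKM in WT. Every slful library was well above the highest WT library, and slful replicate 1 was highest. TM3 rose by a log2 fold change of 1.68, with SE 0.25 and adjusted p = 0.00176, and by 1.41 without slful replicate 1 (adjusted p = 9.18e-05). The call was lost in the 6 FIM libraries alone (adjusted p = 0.101) and without slful replicate 2 (adjusted p = 0.282). The TM3 relative listed as STM3 (Solyc01g092950, described as a MADS-box protein) had 118, 65.0 and 62.6 RPKM in slful, against 39.0, 49.5 and 41.2 RPKM in WT. Its groups did not overlap either. With a log2 fold change of 0.86 (SE 0.18) it did not pass (adjusted p = 0.0795), whereas without slful replicate 1 it passed at 0.56 (adjusted p = 0.0179). Recovered lengths were 809 bases for TM3 and 819 for STM3, in the range of lengths where slful replicate 1 read high. STM3 stands next to TM3 in the deposited table, and no source used here says how reads shared between similar genes were counted. On the other side of TM3 stands Solyc01g093960, described as a MADS box transcription factor. It lay the opposite way, with 4.02, 8.17 and 7.41 RPKM in slful, against 8.99, 7.52 and 13.8 RPKM in WT. Those groups overlapped, with a log2 fold change of -0.60 (adjusted p = 0.602).

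The other SOC1-like and SVP-like genes did not pass. JOINTLESS (listed as J, Solyc11g010570), which acts in the pedicel abscission zone and in keeping the inflorescence meristem from turning vegetative, had 318, 242 and 276 RPKM in slful, against 209, 253 and 244 RPKM in WT. These groups overlapped, with a log2 fold change of 0.24 and an adjusted p of 0.466. The gene listed as MBP18 (Solyc03g006830) had log2 fold change 0.25 (adjusted p = 0.627), and the locus listed as MBP24 (Solyc01g105800) had 0.43 (adjusted p = 0.475). Of these 5 genes 1 rose and 0 fell. Their median log2 fold change was 0.43 with slful replicate 1 and 0.24 without it.

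**Figure D4:**
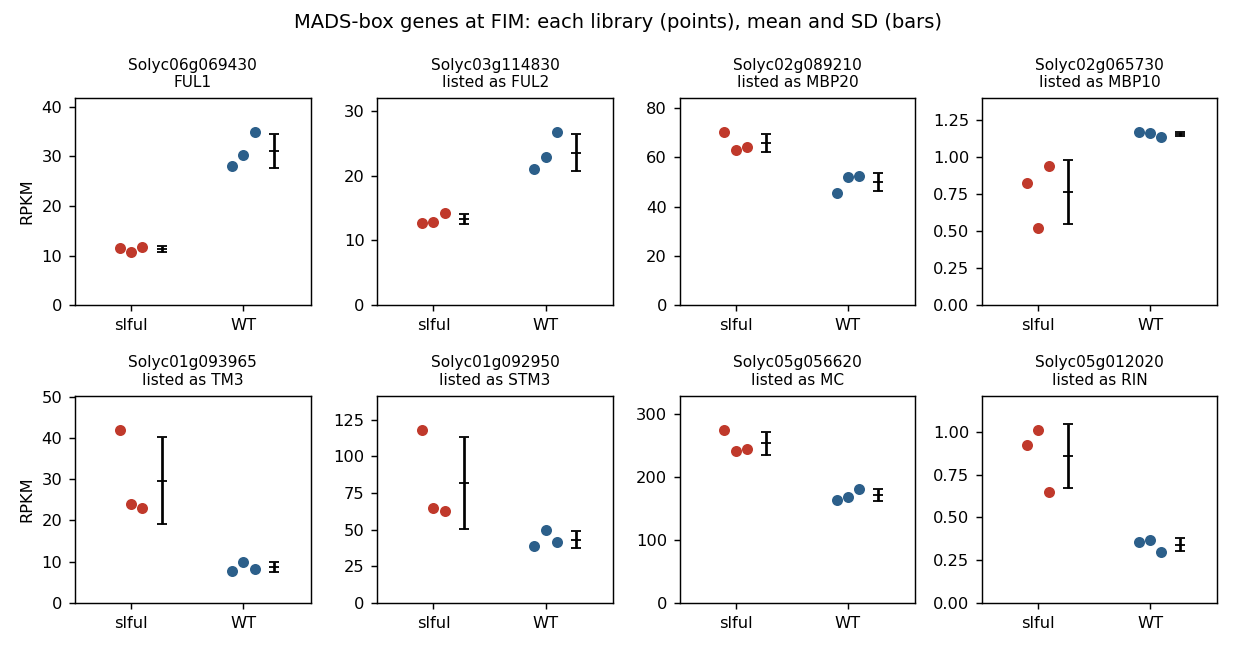
RPKM (vertical axes, from 0) of MADS-box genes in the 3 slful and the 3 WT FIM libraries, 1 point per library and 1 panel per gene, with symbols as listed; the bars give the mean and SD of each group. FUL1 lies lower in slful and TM3 higher, the only called genes of those plotted.

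AP1-like and SEPALLATA-like MADS-box genes act in sepal identity, in floral organ identity and, for some members in tomato, in inflorescence branching. Of 7 such genes 0 rose and 0 fell, beside 0.128% of all tested genes called, with a median log2 fold change of 0.30. MACROCALYX (MC, Solyc05g056620, described as macrocalyx), which acts in sepal size and inflorescence determinacy, had 274, 241 and 244 RPKM in slful, against 162, 168 and 181 RPKM in WT. All slful libraries were above all WT libraries, yet the difference did not pass, with log2 fold change 0.57, SE 0.35 and adjusted p = 0.524. The SE rests on the spread of this gene over all stages and on the group weights, not on these FIM values alone. The locus listed as RIN (Solyc05g012020), a regulator of fruit ripening, was low in both genotypes, at 0.921, 1.01 and 0.651 RPKM in slful, against 0.357, 0.365 and 0.296 RPKM in WT. It too did not overlap and did not pass (log2 fold change 0.69, adjusted p = 0.413). The loci listed as J2 (Solyc12g038510), EJ2 (Solyc03g114840) and LIN (Solyc04g005320), the SEPALLATA genes tied to inflorescence branching in tomato, had log2 fold changes of -0.28, 0.30 and 0.33 with adjusted p from 0.63 to 0.738.

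AGAMOUS-like genes specify stamens and carpels. Tomato AGAMOUS 1 (listed as TAG1, Solyc02g071730) had 6.27, 4.54 and 2.05 RPKM in slful, against 2.06, 2.11 and 1.13 RPKM in WT, with overlapping groups and an adjusted p of 0.429. A second locus, Solyc08g080100, described as a MADS box transcription factor AGAMOUS, had 3.78, 2.69 and 2.45 RPKM in slful, against 0.825, 1.54 and 1.12 RPKM in WT. Its groups did not overlap, and its log2 fold change of 1.07 did not pass (SE 0.29, adjusted p = 0.295).

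Solyc06g050340, described as high mobility group B protein 7, one of a family that bends DNA in chromatin, had 3.15, 4.58 and 3.002 RPKM in slful, against 0 reads in each WT library. The 3 slful libraries together held 230 reads of it, at least 40.6-fold above the limit of 3 reads per WT library. Its log2 fold change was 3.01 (SE 0.42, adjusted p = 0.00135). Solyc04g009860, described as a 2-oxoglutarate and Fe(II)-dependent oxygenase, belongs to a large enzyme family that includes steps of hormone synthesis and specialised metabolism. It had 14.9, 12.1 and 14.1 RPKM in slful, against 1.26, 1.48 and 1.54 RPKM in WT. Values within each genotype were close together and the slful mean was 9.62 times the WT mean. With a log2 fold change of 2.88 (with SE 0.24 and adjusted p = 1.36e-06), it was the gene called under all 17 alternatives.

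Another 4 genes had 0 reads in every WT FIM library, and with the high mobility group gene all 5 passed the filter on low values through slful libraries alone. They were tested because they stood high in slful, so their adjusted p are no independent evidence of a genotype difference. The heat shock gene Solyc06g076540 (class I, a small chaperone family) had 2.09, 0.891 and 1.29 RPKM in slful from 42 reads, at least 7.77-fold above the WT limit (adjusted p = 0.000419). Solyc01g056653, an unknown protein, had 1.02, 1.68 and 2.54 RPKM in slful from 155 reads, at least 24.8-fold (adjusted p = 0.000419). Solyc01g056657, which has no deposited description, had 1.11, 3.56 and 3.14 RPKM in slful from 44 reads, at least 7.13-fold (adjusted p = 0.00383). The slful replicate 1 was the highest slful library for the heat shock gene and the lowest for both genes named after it. Solyc02g077830, also without a description, had 0.924, 0.877 and 1.11 RPKM in slful from only 14 reads, at least 2.40-fold (adjusted p = 0.000419). This gene passed the filter through the slful FIM libraries alone, so it had to stand high there and its p is no evidence. Solyc12g036267, an unknown protein with 14 reads in WT, had 3.96, 2.45 and 5.54 RPKM in slful, against 0.257, 0.0462 and 0.0749 RPKM in WT. Its log2 fold change was 2.80 (SE 0.40, adjusted p = 0.00136).

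Several genes higher in slful were expressed in both genotypes. NIT1 (Solyc08g078950), a name that in Arabidopsis belongs to a nitrilase able to release auxin from indole-3-acetonitrile, had 3.84, 4.28 and 4.04 RPKM in slful, against 0.946, 0.524 and 0.355 RPKM in WT. The slful values were even and the WT values spread, with a log2 fold change of 2.07 (with SE 0.30 and adjusted p = 0.00142). An amidase gene (Solyc01g111220), of enzymes that hydrolyse amides, had 1.47, 1.30 and 1.87 RPKM in slful, against 0.394, 0.431 and 0.420 RPKM in WT. It rose on the log2 scale by 1.15, with SE 0.21 and adjusted p = 0.0233, a call lost under 6 of 16 alternatives.

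The gene Solyc07g017520 is described as conserved oligomeric Golgi complex subunit 3 (COG3), part of a complex that tethers vesicles within the Golgi. It had 9.88, 9.63 and 10.9 RPKM in slful, against 3.59, 3.76 and 3.89 RPKM in WT. All 6 values lay close to their group mean, 10.1 ± 0.657 RPKM in slful and 3.75 ± 0.15 RPKM in WT (SD, n = 3 each). It rose by 1.32 (SE 0.16, adjusted p = 0.000352). A pistil extensin-like protein gene (Solyc01g006390), of cell wall glycoproteins, was the most abundant called gene, with 562, 517 and 575 RPKM in slful, against 280, 271 and 270 RPKM in WT. It rose by 1.01 (SE 0.17, adjusted p = 0.00943), a call lost under 4 of 17 alternatives. The hypothetical protein gene Solyc04g077690 had 16.1, 11.4 and 11.8 RPKM in slful, against 3.95, 4.12 and 4.27 RPKM in WT, and rose by 1.54 (SE 0.19, adjusted p = 0.000419). The remaining 2 genes that rose changed less: Solyc09g009650, an unknown protein, rose by 0.94 (adjusted p = 0.0188), and Solyc02g031830, without a description, rose by 0.65 (adjusted p = 0.043). Both calls were lost in the 6 FIM libraries alone (adjusted p = 0.121 and 0.112) and without WT FIM replicate 3 (0.0698 and 0.0595). Solyc02g031830 was also lost without WT FIM replicate 1 (0.0833) and without WT FIM replicate 2 (0.124), among other alternatives.

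Besides FUL1, 8 genes were lower in slful. The B3 domain gene Solyc07g054630, of a plant family of DNA-binding proteins, had 3.23, 4.27 and 4.70 RPKM in slful, against 10.01, 10.3 and 9.56 RPKM in WT. The groups were far apart, and the gene fell by 1.21 (SE 0.19, adjusted p = 0.00419). A polyphenol oxidase gene (Solyc08g074682), of enzymes that oxidise phenolic compounds, had 2.51, 3.71 and 4.87 RPKM in slful, against 12.8, 9.77 and 10.2 RPKM in WT, and fell by 1.47 (SE 0.27, adjusted p = 0.0188). That call was lost in the 6 FIM libraries alone (adjusted p = 0.116) and with a replicate block (adjusted p = 0.11), among other alternatives. SEC3A (Solyc10g073357), an exocyst subunit that tethers secretory vesicles at the plasma membrane, was at 0.556, 0.198 and 0.5002 RPKM in slful, against 2.06, 1.79 and 1.62 RPKM in WT. It fell by 1.36 (SE 0.26, adjusted p = 0.0263), on 52 reads in slful and 360 in WT, and the call was lost under 8 of 17 alternatives.

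A pair of called genes stand next to each other in the deposited table. Solyc10g044480, a transmembrane 9 superfamily member of the endomembrane system, had 7.31, 5.56 and 11.2 RPKM in slful, against 26.2, 23.7 and 25.5 RPKM in WT, and fell by 1.64 (SE 0.24, adjusted p = 0.00165). Solyc10g044470, a chloride channel protein that moves anions across membranes, had 1.66, 1.495 and 4.97 RPKM in slful, against 10.1, 8.36 and 7.91 RPKM in WT, and fell by 1.69 (SE 0.29, adjusted p = 0.00931). In both genes slful replicate 3 was the highest slful library and still below all WT libraries. Of the 3 lower genes without a description, Solyc06g071580 had 8.75, 9.25 and 9.20 RPKM in slful, against 15.7, 16.3 and 15.7 RPKM in WT, and fell by 0.78 (SE 0.13, adjusted p = 0.00931). Solyc09g057650 fell by 0.84 (adjusted p = 0.0197). Solyc01g105475 fell by 1.70 (adjusted p = 0.043) on 5 reads in slful and 53 in WT, and was lost under 9 of 16 alternatives.

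Genes that set meristem and floral identity did not pass in either direction. Of all tested genes only 0.128% were called, so 0 calls in lists as short as these says little about the listed genes. Of 7 floral identity genes 0 rose and 0 fell (median log2 fold change -0.15). COMPOUND INFLORESCENCE (listed as S, Solyc02g077390), a WOX homeobox gene whose loss gives highly branched inflorescences, had 41.7, 49.3 and 45.9 RPKM in slful, against 66.9, 66.0 and 52.8 RPKM in WT. Its groups did not overlap, and its log2 fold change of -0.43 did not pass (adjusted p = 0.485). ANANTHA (listed as AN, Solyc02g081670), the F-box gene needed for flower formation, had 2.65, 6.83 and 7.90 RPKM in slful, against 4.28, 4.45 and 7.11 RPKM in WT, with overlapping groups (log2 fold change 0.04, adjusted p = 0.987). Among 6 meristem genes of the WUSCHEL-CLAVATA and KNOX classes 0 rose and 0 fell (median 0.08). The largest difference among these was in the locus listed as CLV3 (Solyc11g071380), the stem cell peptide gene, with 26.8, 25.95 and 13.7 RPKM in slful, against 11.001, 18.8 and 13.8 RPKM in WT (adjusted p = 0.661).

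Florigen and antiflorigen set the balance between flowering and vegetative growth. The locus listed as SFT (Solyc03g063100), the florigen gene, had 5.57, 5.78 and 4.98 RPKM in slful, against 3.14, 5.14 and 3.01 RPKM in WT, and the locus listed as SP (Solyc06g074350) had 11.3, 4.44 and 2.52 RPKM in slful, against 5.86, 12.4 and 3.57 RPKM in WT. Both overlapped between genotypes, with adjusted p of 0.567 and 0.912. The loci listed as SP5G and SP9D had 0 reads in all 6 libraries and were not tested.

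Lateral organ genes did not pass. All 4 members listed, FAS, LA and a pair of YABBY genes, had negative log2 fold changes between -0.62 and -0.46 (median -0.52), and 0 fell. Their summed level was 27.4, 35.4 and 44.1 RPKM in slful, against 49.7, 47.0 and 57.0 RPKM in WT, so every slful sum was below every WT sum, with slful replicate 1 lowest. LANCEOLATE (listed as LA, Solyc07g062680), a TCP gene of leaf growth, had 7.15, 8.04 and 7.13 RPKM in slful, against 9.42, 11.1 and 10.9 RPKM in WT (log2 fold change -0.46, adjusted p = 0.444). Among 3 boundary genes 0 passed, with a median of -0.16. BLIND (listed as BL, Solyc11g069030), a MYB gene of branching, was above WT in all slful libraries, at 55.5, 42.4 and 48.0 RPKM in slful, against 36.8, 36.3 and 34.5 RPKM in WT (adjusted p = 0.45). The other 2 boundary genes lay the opposite way, with every slful library below every WT library. Groups did not overlap in 7.57% of all tested genes with slful higher and in 9.91% with slful lower. None of 4 AP2-like genes (median -0.08) or of 3 tested gibberellin genes (median -0.11) passed. Only 0.128% of all tested genes were called, so 0 calls in lists this short says little about them.

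Markers of other tissue were also compared. Of 7 tested photosynthetic genes 0 passed, beside 0.128% of all tested genes, with a median log2 fold change of -0.04. Their list summed to 313, 233 and 272 RPKM in slful, against 319, 321 and 292 RPKM in WT, so the groups overlapped. The 7 genes described as terpenoid synthases, which are typical of glandular trichomes, summed to 9.56, 30.2 and 25.1 RPKM in slful, against 2.25, 10.1 and 3.66 RPKM in WT. The sum overlapped between genotypes, with slful replicate 1 below WT replicate 2, and 0 of the 7 passed. These genes carry a description because the authors listed them as changed, so their direction is no independent evidence. The part of trichome RNA in the called genes was not tested.

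The difference at FIM was set beside that at the other stages, which share no library with it. All stages were tested in the same fit with a shared residual variance per gene, so calls at different stages are not independent. Of the 24 genes called at FIM, 12 were called in the same direction at VM, where 1.67% of tested genes passed. At TM 15 were, beside 0.367% of tested genes, and at SFIM 15 were, beside 2.08%. None was called in the opposite direction at another stage. At all 4 stages 10 of the 24 were called. They included the oxygenase gene Solyc04g009860, COG3 (Solyc07g017520), the extensin-like gene Solyc01g006390, TM3 (Solyc01g093965), the B3 domain gene Solyc07g054630 and the high mobility group gene Solyc06g050340. The 24 hold the 5 genes with 0 reads in every WT FIM library, which passed the filter through slful libraries alone. For those 5, the high mobility group gene among them, a shared direction is no independent evidence. The stage counts were not repeated without them. TM3 had log2 fold changes of 0.99 at VM, 1.005 at TM, 1.68 at FIM and 1.38 at SFIM, and COG3 had 1.04, 0.99, 1.32 and 1.08 in the same order. FUL1 (Solyc06g069430) had log2 fold changes of -0.36 at VM (adjusted p = 0.27), -1.02 at TM, -1.41 at FIM and -1.25 at SFIM. At VM its mean level was 1.65 RPKM in slful and 2.22 RPKM in WT, while at FIM it was 11.3 RPKM in slful and 31.1 RPKM in WT. MBP20 (Solyc02g089210), not called at FIM, was called higher at the other 3 stages, with log2 fold changes of 1.31 at VM, 0.72 at TM and 0.43 at SFIM, beside 0.39 at FIM.

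At FIM and at no other stage 6 of the 24 genes were called: the neighbours Solyc10g044470 and Solyc10g044480, Solyc09g009650, Solyc02g031830, Solyc01g105475 and Solyc02g077830. A gene called at a single stage is not thereby shown to differ between stages, so the FIM difference was tested against the mean of the VM, TM and SFIM differences. In that test 1 gene of 18786 passed (0.00532%), Solyc02g077830, and 1311 had an unadjusted p under 0.05. The gene passed the filter on low values through the 3 slful FIM libraries alone, so it had to stand high there and its p is no evidence of a difference between stages. For the neighbours Solyc10g044480 and Solyc10g044470 the difference between FIM and the other stages was -1.20 and -1.21 on the log2 scale, with adjusted p of 0.519 and 0.694. The hypothetical protein gene Solyc04g077690, called at FIM and SFIM, differed from the mean of the other stages by 1.14 (adjusted p = 0.137). The call of Solyc02g077830 rests on 14 reads, and no gene passed under 6 of 15 alternatives.

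**Figure D5:**
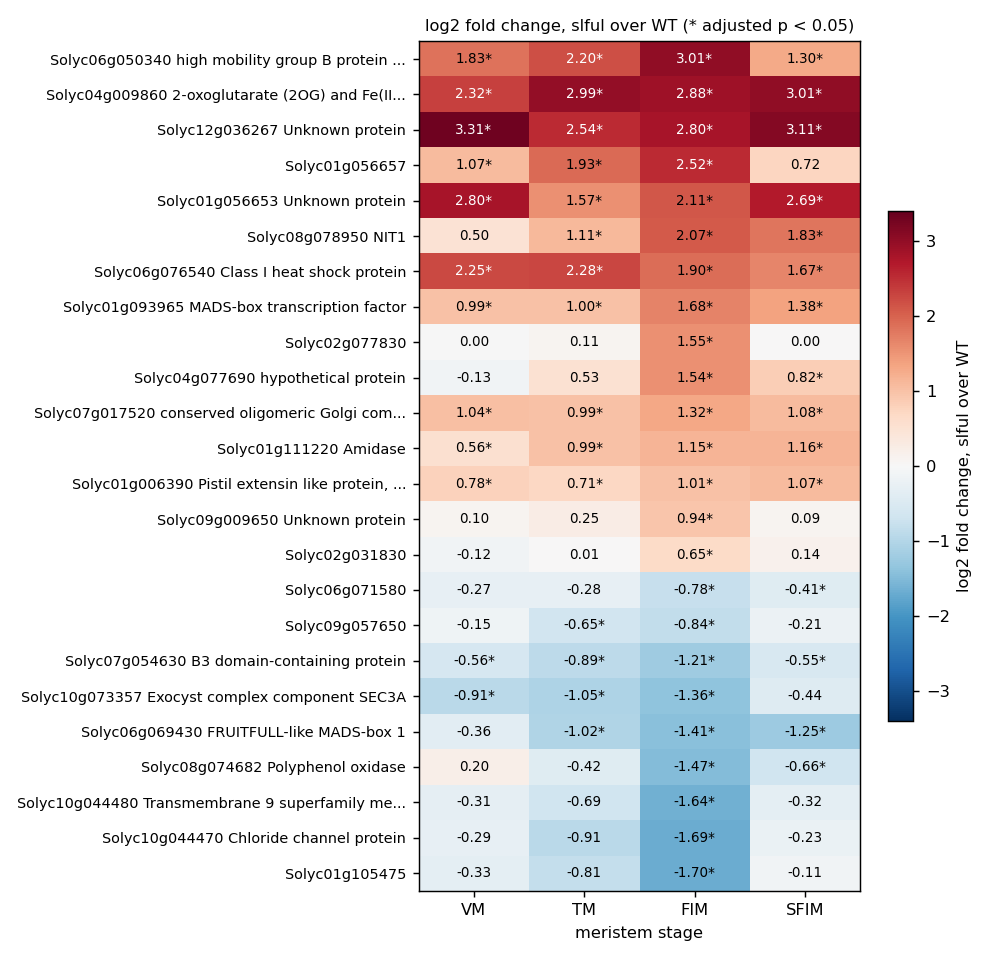
Log2 fold change of slful over WT for the 24 genes called at FIM (rows) at VM, TM, FIM and SFIM (columns, in developmental order), with an asterisk where the adjusted p is under 0.05. Of the 24 rows, 10 carry an asterisk in every column and 6 in the FIM column alone.

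The authors' deposited table of the FIM comparison lists 216 genes, 0.634% of the genes in the expression table, of which 182 were higher and 34 lower in slful. Its genes all pass a false discovery rate of 0.05 and change by more than 1 on the log2 scale either way, by a test that no source used here names. Of the 216 genes, 207 were tested here and 17 were called, which is 7.87% of that list and 70.8% of the 24. Without slful replicate 1, 64 of the 216 were called, and with 1 common spread 95. In 172 of the 216 the groups did not overlap, beside 7.57% of all tested genes with slful higher and 9.91% with slful lower, but the 216 were chosen on these same 6 libraries. In 44 the higher group mean of the authors' deposited table was under 1 RPKM. In the authors' list slful replicate 1 was the highest of all 6 libraries for 68 of the 182 higher genes and the lowest for 16 of the 34 lower genes. Over all tested genes it was the highest for 25.2% and the lowest for 47.9%. Those shares are no like baseline, because the listed genes were chosen for slful lying higher or lower than WT.

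Of 5 MADS-box genes on the authors' list, TM3 rose and FUL1 fell here and 3 did not pass. A pair of transcription factor genes on that list were high in WT replicates 1 and 2 alone. Solyc12g009240, an ethylene-responsive transcription factor, had 0, 0 and 0.0445 RPKM in slful, against 2.08, 2.82 and 0.0742 RPKM in WT. The C2H2-type zinc finger gene Solyc04g077980 had 0.0826, 0.118 and 0.510 RPKM in slful, against 3.68, 6.56 and 0.283 RPKM in WT. In both genes WT replicate 3 was at the slful level, and adjusted p was 0.451 and 0.487. Of the 5 gibberellin and ethylene genes on the list, 0 were called.

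The 4 photosynthesis genes on the authors' list were all lower there, and 0 were called here. Solyc00g500296, photosystem II protein D1, had 3.47, 6.20 and 1.47 RPKM in slful, against 31.7, 7.30 and 11.5 RPKM in WT, with WT replicate 1 far above the rest. Of 7 terpenoid genes on the list all were higher there and 0 passed here. Solyc08g005680, Z,Z-farnesyl pyrophosphate synthase, a trichome terpene enzyme, had 5.12, 13.6 and 12.7 RPKM in slful, against 0.626, 4.86 and 1.73 RPKM in WT. Its groups did not overlap, and its log2 fold change of 2.09 had an SE of 0.92 (adjusted p = 0.429).

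Of 5 protease inhibitor genes on the authors' list, which are typical of wound and defence responses, 0 passed here. Like all genes taken from that list, they were chosen by the authors for a difference in these libraries, so their direction is no independent evidence. Proteinase inhibitor 1 (Solyc09g089530) had 29.5, 16.1 and 11.2 RPKM in slful, against 3.31, 3.72 and 4.02 RPKM in WT, with a log2 fold change of 2.11 (with SE 0.50 and adjusted p = 0.152, and 0.0271 without slful replicate 1). A defensin protein gene (Solyc07g007755), an antimicrobial peptide class, had 574, 295 and 460 RPKM in slful, against 157, 183 and 169 RPKM in WT (log2 fold change 1.33, adjusted p = 0.391). Of 10 oxygenase and P450 genes, 9 were higher on the authors' list and 1 was called here, Solyc04g009860. Of 32 genes described as retroelements or unknown proteins, 31 were higher on the list, and 4 of the 31 tested rose here.

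Leaving out slful replicate 1 added 80 calls to the 24, 62 of them higher in slful. These calls rest on 2 slful libraries and 3 WT libraries. In 69 of the 80 the groups did not overlap even with replicate 1 included, beside 7.57% of all tested genes with slful higher and 9.91% with slful lower. The 80 were chosen on these same libraries except replicate 1, so this count is no independent evidence. Early nodulin-like protein 3 (Solyc11g072627) had 5.09, 4.86 and 4.72 RPKM in slful, against 0.122, 0.394 and 0.319 RPKM in WT. Its slful values were even, including replicate 1, and adjusted p was 0.0916 with all libraries and 0.0028 without that replicate. A glucan endo-1,3-beta-glucosidase gene (Solyc12g040860), an enzyme class that cleaves callose, had 0.854, 0.790 and 0.725 RPKM in slful, against 0, 0 and 0.0183 RPKM in WT (adjusted p = 0.0567, and 0.00208 without replicate 1).

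Of the further additions, chosen after their values were seen, methyl-CpG-binding domain-containing protein 6 (Solyc11g073080), of proteins that bind methylated DNA, had 9.38, 7.53 and 5.44 RPKM in slful, against 15.02, 15.9 and 15.7 RPKM in WT, with a log2 fold change of -1.05 (adjusted p = 0.122, and 0.000966 without replicate 1). WRKY transcription factor 28 (Solyc12g011200) had 0.898, 2.19 and 2.57 RPKM in slful, against 0.377, 0.306 and 0.302 RPKM in WT. Here replicate 1 lay between the other slful libraries and WT, and adjusted p was 0.00361 without it and 0.345 with it. A cyclin gene (Solyc11g030550), of cell cycle regulators, showed the opposite pattern, with 52.2, 32.4 and 26.7 RPKM in slful, against 19.6, 15.5 and 18.2 RPKM in WT. Its log2 fold change was 0.99 with all libraries (adjusted p = 0.0795) and 0.72 without replicate 1 (adjusted p = 0.0179).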

How the data were processed

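The members and gene lists were chosen with earlier results of these data known. RNA was column-extracted from pooled meristems, treated with DNase and made into TruSeq libraries, per the labels' protocols. The authors deposited RPKM values per gene. No source used here names the aligner, genome build, annotation or strandedness. The authors also deposited, per stage, a table of log2 fold changes with a signed fold score and p-values, already filtered. Symbols not in those tables are written as listed, and the reference table of symbols matched 0 gene IDs. Whole reads and gene lengths were recovered from the RPKM steps with Python 3.11.15 and numpy 2.4.6: all 25568 genes above 0 gave whole reads within 0.004. These are the smallest whole numbers that fit the steps, so counts of genes with few reads could be multiples of those given. Limits from 0 reads hold for counting error alone, because the libraries carry no marks for PCR copies.

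Genes that reached 0.5 RPKM in 3 or more of the 24 libraries were fitted with limma 3.58.1 (R 4.3.3) on log2(RPKM + 0.5), which understates the fold of low genes. The fit held a mean and a variance weight per group and a variance trend, and its 2-sided tests were Benjamini-Hochberg adjusted over all tested genes at 0.05. The labels call the replicates biological. On simulated data the fit made more false calls than the adjusted threshold allows, and with 1 common spread for all groups it made more still. Fold limits against 0 reads used 3 reads per library. Genes were named as members of the ID lists, as up to 20 called genes each way, as up to 8 genes for the test between stages and as up to 4 genes per description list from the authors' table. Genes called without slful FIM replicate 1, Solyc03g114940 and neighbours in the table were chosen after their values were seen.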

Additional observations from a re-analysis of the deposited data

Results flagged for a closer look

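For Solyc02g077830, a gene with no deposited description, the genotype difference at FIM minus the mean of those at the other stages was 1.52 on the log2 scale (SE 0.21, adjusted p = 0.00909, limma). The gene had 3, 4 and 7 reads in slful FIM replicates 1 to 3, against 0 reads in each WT FIM library. At the other stages 1 read was found in slful TM and 0 in every other group. The gene passed the filter on low values through the 3 slful FIM libraries alone, so the p is no evidence that the stages differ.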

How the results depend on the processing

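The 24 calls at FIM became 284 with 1 common spread for all groups, 11 in the 6 FIM libraries alone, 82 after removal of the length trend, 15 at a mean of at least 1 RPKM, 39 with no filter on low values and 59 under quantile normalisation. Left-out FIM libraries gave 1 to 104 calls. The TM and FIM libraries alone, both other pseudocounts (0.1 and 1 RPKM), voom on the recovered reads and the replicate block gave 19 to 32. The test against the other stages, with 1 call, gave 8 with 1 common spread, 2 after removal of the length trend, 3 with no filter and 0 at a mean of at least 1 RPKM, with pseudocount 0.1, with voom and with the replicate block. Left-out libraries gave 0 to 5. The cause was not tested.

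With a replicate block within stage there were 19 calls at FIM, 15 higher and 4 lower. Deviations from the group means had correlations of -0.33, -0.195 and 0.161 between same-numbered FIM libraries. Because slful replicate 1 moved with gene length, these values cannot show whether replicate numbers pair the samples. Over the 24 called genes and the alternatives where each was tested, 310 of 402 values kept their call, 92 lost it and 0 changed sign. For the FUL-like and SOC1-like genes not called, 110 of 118 stayed uncalled and 8 gained a call. A fit with 1 weight per library was planned and not used, because its weights did not converge and 1 library took nearly all of the weight. A planned quasi-likelihood test on the recovered reads was not run. Depth limits low genes, since 3 reads in a 1 kb gene equal 0.194 RPKM in slful replicate 1.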

Other observations

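Some genes next to a called gene in the deposited table had values on the same side, and others lay on the opposite side. Opposite and without overlap were Solyc01g111210 (log2 fold change -0.26) beside the amidase gene and Solyc06g071590 (0.38) beside Solyc06g071580, neither of them called. These neighbours were looked at after the calls were known, and reads of overlapping or similar neighbours cannot be told apart where strandedness and counting of shared reads were not given. A second gene described as a conserved oligomeric Golgi complex subunit 3 (Solyc07g017530), beside Solyc07g017520, had 6.87, 8.30 and 7.70 RPKM in slful, against 4.66, 3.39 and 3.64 RPKM in WT. It did not overlap between genotypes, with a log2 fold change of 0.89 and an adjusted p of 0.139, or 0.00262 without slful replicate 1. A second 2-oxoglutarate-dependent oxygenase gene (Solyc04g009850), beside Solyc04g009860, had 0.292, 0.901 and 0.701 RPKM in slful, against 0 reads in every WT library, with an adjusted p of 0.36, or 0.0073 without slful replicate 1.

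Solyc08g074680, beside the polyphenol oxidase gene Solyc08g074682, had 5.36, 7.41 and 7.74 RPKM in slful, against 11.8, 12.2 and 14.95 RPKM in WT. Its log2 fold change of -0.89 did not pass (adjusted p = 0.423). The neighbours of FUL1 were not called: Solyc06g069440 had 14.04, 23.4 and 25.1 RPKM in slful, against 29.1, 22.4 and 25.9 RPKM in WT, with overlapping groups and an adjusted p of 0.449. Solyc06g069420 lay opposite to FUL1 and barely without overlap, at 0.744, 0.814 and 0.5882 RPKM in slful, against 0.392, 0.522 and 0.5880 RPKM in WT. Its log2 fold change was 0.28 (adjusted p = 0.74).

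Further genes described as regulators passed without slful replicate 1 and not with all libraries. A second B3 family gene (Solyc08g006280) had 0, 0.0520 and 0.150 RPKM in slful, against 0.644, 0.667 and 1.16 RPKM in WT, with a log2 fold change of -1.21 (adjusted p = 0.102, and 0.00825 without that replicate). The LITTLE ZIPPER 2-like gene (Solyc08g007570), of small proteins that bind HD-ZIP III factors in Arabidopsis, had 9.13, 8.37 and 6.57 RPKM in slful, against 2.13, 3.30 and 3.17 RPKM in WT (adjusted p = 0.285, and 0.031 without that replicate). BEL1-like homeodomain protein 3 (Solyc01g007070), of KNOX partner proteins, had 0.321, 0.667 and 1.03 RPKM in slful, against 0.145, 0.176 and 0.106 RPKM in WT (adjusted p = 0.391, and 0.00676 without that replicate).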
